A study of Mus musculus with 18 samples.

Results

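Rgs5, Rgs4, Kcnj8, Abcc9, Cspg4 and Mcam, 6 genes widely used to mark pericytes, were followed through cultures labelled as fibroblasts. They were found by matching the gene identifiers of the deposited count table to symbols, and make up 6 of 32285 identifiers. Each had counts in at least 16 of 18 libraries, and 6 of 6 passed the filter on low counts that left 15072 genes for testing. The study profiled RNA of sorted synovial fibroblasts from the paws of wild-type (WT) mice. Cells of naive mice stayed unstimulated or were given, for 3 days in culture, FGF2 (fibroblast growth factor 2, a mitogen) at 10 ng/mL, OPN (osteopontin, which binds integrins and CD44) at 50 ng/mL, or both. Cells of WT mice with K/BxN serum-induced arthritis (STIA), an inflammation of the joints caused by transferred serum, were left unstimulated or received OPN at that dose for 3 days. Each of the 6 groups held 3 libraries. STIA cells with FGF2 were not analysed here, so the response to FGF2 is known for naive cells only. Whether the replicates are separate mice or cultures is not in the labels, so each p-value measures only the spread between these samples. Neither the gates of the sort nor how long unstimulated cells were cultured is given in the sources used here.

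Pericytes are mural cells that wrap capillaries and share the vessel's basement membrane with the endothelium. Rgs5 and Rgs4 encode regulators of G-protein signalling, which speed the shut-off of G-alpha subunits and so dampen signals from receptors such as those for endothelin and angiotensin. Kcnj8 encodes the pore and Abcc9 the sulphonylurea receptor of the vascular ATP-sensitive potassium channel, which couples the metabolic state of a mural cell to its membrane potential. Cspg4 encodes the proteoglycan NG2 and Mcam the adhesion molecule CD146, both on the cell surface. Neither surface protein is restricted to pericytes, and synovial fibroblasts near vessels can carry mural genes.

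In the GRCm38 (mm10) coordinates of the deposited table, 4 of the 6 genes lie in neighbouring pairs. On chromosome 1, Rgs5 (ENSMUSG00000026678, chr1:169655501-169695813, plus strand) ends 45.7 kb before Rgs4 (ENSMUSG00000038530, chr1:169741477-169747642, minus strand). On chromosome 6, Kcnj8 (ENSMUSG00000030247, chr6:142564837-142571614, minus strand) and Abcc9 (ENSMUSG00000030249, chr6:142587862-142702315, minus strand) are 16.2 kb apart. Cspg4 (ENSMUSG00000032911, chr9:56865033-56899870) and Mcam (ENSMUSG00000032135, chr9:44134469-44142727) both lie on the plus strand of chromosome 9 and are not neighbours. No tested gene lies between the members of either pair. The promoters of the paired genes are shown because 1 pair changed in opposite directions with FGF2 and the other in the same direction, for Kcnj8 on very few counts. These are bases before the transcription start in RefSeq (GRCm38.p6), 5′ to 3′ on the strand of the gene, at chr1:169655251-169655500, chr1:169747643-169747892, chr6:142571615-142571864 and chr6:142702316-142702524. For Rgs5, Rgs4 and Kcnj8 they run from 250 bases before the start to the start itself. For Abcc9 they end 42 bases before it, since the 41 bases nearest the start include bases of an exon of Abcc9 in GENCODE and are not printed. Positions below are counted back from the RefSeq start, not from the end of the printed run. Capitals mark the matches to the motifs that were searched.
Rgs5: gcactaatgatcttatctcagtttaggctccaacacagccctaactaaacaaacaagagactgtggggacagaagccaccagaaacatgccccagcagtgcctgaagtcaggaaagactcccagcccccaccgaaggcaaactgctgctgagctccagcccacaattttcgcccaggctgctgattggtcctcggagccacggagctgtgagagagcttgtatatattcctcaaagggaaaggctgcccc
Rgs4: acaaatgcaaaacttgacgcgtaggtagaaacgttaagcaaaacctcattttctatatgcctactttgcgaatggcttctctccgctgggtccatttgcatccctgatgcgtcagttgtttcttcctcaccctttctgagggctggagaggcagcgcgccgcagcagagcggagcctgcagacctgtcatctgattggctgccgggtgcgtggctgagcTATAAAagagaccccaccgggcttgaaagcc
Kcnj8: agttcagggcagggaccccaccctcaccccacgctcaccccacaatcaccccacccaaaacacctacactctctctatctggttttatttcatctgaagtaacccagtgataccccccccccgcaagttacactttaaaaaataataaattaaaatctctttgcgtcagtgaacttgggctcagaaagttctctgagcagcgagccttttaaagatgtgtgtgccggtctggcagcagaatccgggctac
Abcc9: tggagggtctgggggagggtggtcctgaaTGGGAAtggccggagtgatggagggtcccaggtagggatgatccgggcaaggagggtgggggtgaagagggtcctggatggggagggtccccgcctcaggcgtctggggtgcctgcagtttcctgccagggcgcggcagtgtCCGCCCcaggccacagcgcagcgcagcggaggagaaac
Both strands of the 250 bases before the start were searched. The letters were TATAAA for the TATA box, which positions the polymerase, and GGGCGG for the GC box bound by Sp1. For the factors named next they were TGANTCA for AP-1, a target of growth factor signalling, CCGGAA for the core of ETS factors and TGGGAA for the core of the Notch effector RBPJ. The CArG box of the serum response factor was searched as well. The promoter of Rgs4 held TATAAA from 31 to 26 bases before the start, a string that 13% of 27025 RefSeq promoters hold. That of Abcc9 held TGGGAA from 221 to 216 bases (21.5% of promoters) and, on the other strand, the GC box from 79 to 74 bases (32.9%). No match overlapped another. The promoters of Rgs5 and Kcnj8 held none of these letters. Close variants, such as the tatatat in the printed Rgs5 bases, were not searched. Over all promoters 6.87% hold the AP-1 letters, 12.2% the ETS core and 1.4% the CArG box. The GC content of the 250 bases was 53.6% for Rgs5, 53.6% for Rgs4, 49.2% for Kcnj8 and 66.8% for Abcc9, against a median of 52.0% over all promoters. The promoters of the paired genes had no searched motif in common in this window.

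Library totals ran from 27527043 to 40357342 counts. Replicate 2 of the FGF2 group stood apart from its 2 partners, with a chi-square per degree of freedom over genes of 31.46 and 43.65 against 4.62 between those partners, and fold changes of the 6 genes that rest on this group are given with and without it. Replicate 3 of the FGF2 plus OPN group also stood apart, at 23.06 and 27.18 against 8.57 between its partners. Without it the 24 log2 fold changes of the 6 genes that use this group moved by at most 0.20, and 1 call was lost, that of Rgs4 in the interaction described below. Levels of list genes include both libraries, and each list gene for which a fold change is given kept its call without either. Fibroblast markers were high in each group: 14 of 14 exceeded 1 CPM (counts scaled to library size, itself scaled by TMM) in each group mean, and their summed level was 95372 to 103189 CPM in unstimulated naive libraries. It was 32625 to 36406 CPM with FGF2, 83382 to 96531 with OPN, 44502 to 56167 with both, 71038 to 81598 in STIA and 87995 to 88511 in STIA with OPN. Collagen and fibronectin genes made up most of the unstimulated sum, with Col1a1 at a mean of 36971 CPM, and 4067 with FGF2. Vim (5054 to 8716 CPM) and Pdpn (181 to 829 CPM) were higher with FGF2. Without FGF2 replicate 2, 3 of the 14 were called higher with FGF2 and 10 lower. The 6 genes are called pericyte markers here from textbook use. Of 30 other markers of mural cells, 25 passed the filter and 20 averaged at least 1 CPM in unstimulated naive cells, with Pdgfrb at 826, Cd248 at 495 and Anpep at 316 CPM, genes that fibroblasts also express. Higd1b and Vtn, of the same list, had at most 3 counts in every library, and Kcnj8, among the more selective of the 6 genes, stayed below 2 CPM in each library. The data come from whole cultures, in which fewer cells of a type and less RNA per cell cannot be told apart.

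In naive cells the 6 genes responded in different ways. FGF2 raised Rgs5 and lowered Rgs4, Abcc9, Mcam and, on very few counts, Kcnj8; OPN raised Rgs4 and lowered Mcam; with both factors Rgs5, Kcnj8 and Abcc9 were higher and Rgs4, Cspg4 and Mcam lower than in unstimulated cells. Calls are at an adjusted p below 0.05 in edgeR's quasi-likelihood test, adjusted by Benjamini-Hochberg over all genes tested. With FGF2, 1 member rose and 4 fell, where 29.1% of all tested genes rose and 28.1% fell. With OPN, 1 rose and 1 fell, against 15.2% and 16.5% of all genes. With both factors, 3 rose and 3 fell, against 23.7% and 26.1%. Kcnj8 is in these counts, although it passed the filter only through the group with both factors: it failed it when unstimulated cells were filtered with FGF2 or with OPN libraries alone. Its fitted values are therefore given as a description. With Kcnj8 set aside, 1 gene rose and 3 fell with FGF2, and 2 rose and 3 fell with both factors. So many genes changed in these cultures that a call alone does not set the members apart. The median log2 fold change of the 6 members was -1.49 with FGF2 and 0.41 with OPN, beside a median within 0.03 of 0 over all genes in every comparison. The median of the members includes Kcnj8. With FGF2 the single values ran from -2.37 for Rgs4 to 4.20 for Rgs5, so it does not stand for a shared shift. These comparisons share the unstimulated naive libraries.

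**Figure D1:**
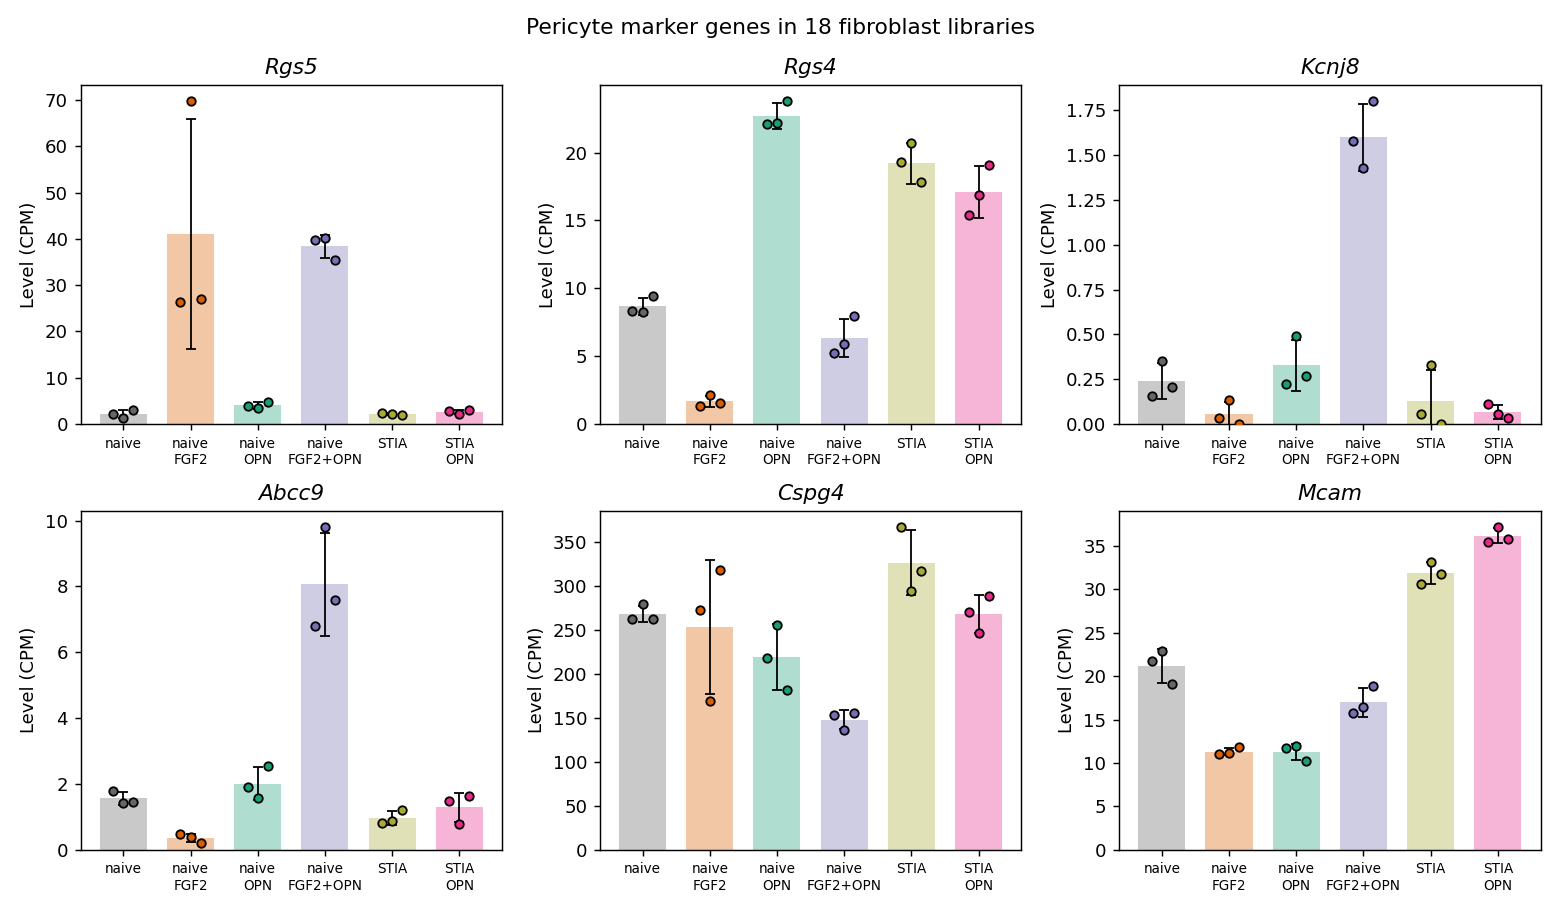
Level of each of the 6 pericyte marker genes (y axis, CPM on a linear scale starting at 0, a separate scale for each gene) in the 6 groups (x axis); points are libraries, bars are means and error bars are SD over 3 libraries. Rgs5 is high in the FGF2 groups, with 1 FGF2 library at 69.8 CPM, and Kcnj8 and Abcc9 are high with both factors, at up to 1.8 and 9.81 CPM.

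Among the signalling regulators, Rgs5 was low without FGF2 and high with it. Its levels in unstimulated naive libraries were 2.21, 1.38 and 3.09 CPM, and with FGF2 they were 26.4, 69.8 and 27.1 CPM (41.1 ± 24.9, SD, n = 3). The 3 FGF2 libraries lay above each unstimulated library, and replicate 2 lay far above its partners. Rgs5 rose by a log2 fold change of 4.20 ± 0.40 (SE; 18.4-fold, edgeR adjusted p = 5.84e-07), and without FGF2 replicate 2 by 3.58 ± 0.17 (adjusted p = 7.75e-14). With both factors the levels were 39.7, 40.1 and 35.5 CPM (38.4 ± 2.52, SD, n = 3), again above each unstimulated library and within the range of the FGF2 libraries. This was a rise of 4.10 ± 0.40 over unstimulated cells (17.2-fold, adjusted p = 1.47e-06) and of 3.26 ± 0.36 over OPN alone (9.56-fold, adjusted p = 4.1e-06). FGF2 plus OPN and FGF2 alone could not be told apart (log2 difference -0.10 ± 0.30, adjusted p = 0.803). Without FGF2 replicate 2, however, Rgs5 was 0.52 ± 0.14 higher with both factors (adjusted p = 0.00362), so that the direction rests on 1 library.

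OPN alone gave 3.84, 3.45 and 4.85 CPM of Rgs5, each above the unstimulated naive libraries and far below the FGF2 libraries. The log2 difference from unstimulated cells was 0.85 ± 0.45 and did not pass (edgeR adjusted p = 0.178), although it passed when only the 2 groups compared were fitted (adjusted p = 0.0143) and with no filter on low counts (adjusted p = 1.5e-07). In STIA the levels were 2.42, 2.22 and 1.85 CPM, and in STIA with OPN 2.79, 2.21 and 2.97 CPM, within the range of unstimulated naive libraries. From the highest group mean, 41.1 CPM with FGF2, to the lowest, 2.16 CPM in STIA, the span was 19.0-fold, a value that includes FGF2 replicate 2; the mean with both factors was 38.4 CPM. In that order FGF2 and FGF2 plus OPN overlapped, OPN was separate from its neighbours, and STIA with OPN, unstimulated naive and STIA overlapped.

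Rgs4, the neighbour of Rgs5 and its paralog, went the other way with FGF2. Its levels were 8.36, 8.29 and 9.41 CPM in unstimulated naive libraries and 1.33, 2.12 and 1.57 CPM with FGF2, without overlap. Rgs4 fell by 2.37 ± 0.17 on the log2 scale (edgeR adjusted p = 2e-11), and without FGF2 replicate 2 it fell by 2.57 ± 0.18. With OPN it was the highest of any group, at 22.1, 22.2 and 23.8 CPM, a rise of 1.38 ± 0.13 (2.61-fold, adjusted p = 5.08e-08). With both factors it was intermediate between the single factors, at 5.2, 5.88 and 7.93 CPM, each below the unstimulated libraries and above the FGF2 libraries. It was 0.46 ± 0.14 below unstimulated cells on the log2 scale (log2 fold change -0.46, adjusted p = 0.0077), a call that was lost without FGF2 plus OPN replicate 1 (-0.33, adjusted p = 0.069). It was 1.91 ± 0.17 above FGF2 alone (adjusted p = 1.94e-09; 2.11 ± 0.19 without FGF2 replicate 2) and below OPN alone (-1.85 ± 0.13, adjusted p = 8.37e-11). The highest group mean of Rgs4 was 13.6 times the lowest, and only STIA and STIA with OPN overlapped among neighbours in the order of its levels.

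The 2 genes thus exchanged rank. Per kilobase of exon, the ratio of Rgs5 to Rgs4 was 0.114 to 0.224 in unstimulated naive libraries, 11.7 to 22.5 with FGF2, 0.106 to 0.139 with OPN and 3.05 to 5.2 with both factors. In STIA it was 0.0709 to 0.0857, and in STIA with OPN 0.0888 to 0.124. Each library with FGF2 had more Rgs5 than Rgs4 per length, and each library without it had less. Over the 18 libraries the log2 CPM of the 2 genes had a Pearson r of -0.76, a description of libraries that share their groups.

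**Figure D2:**
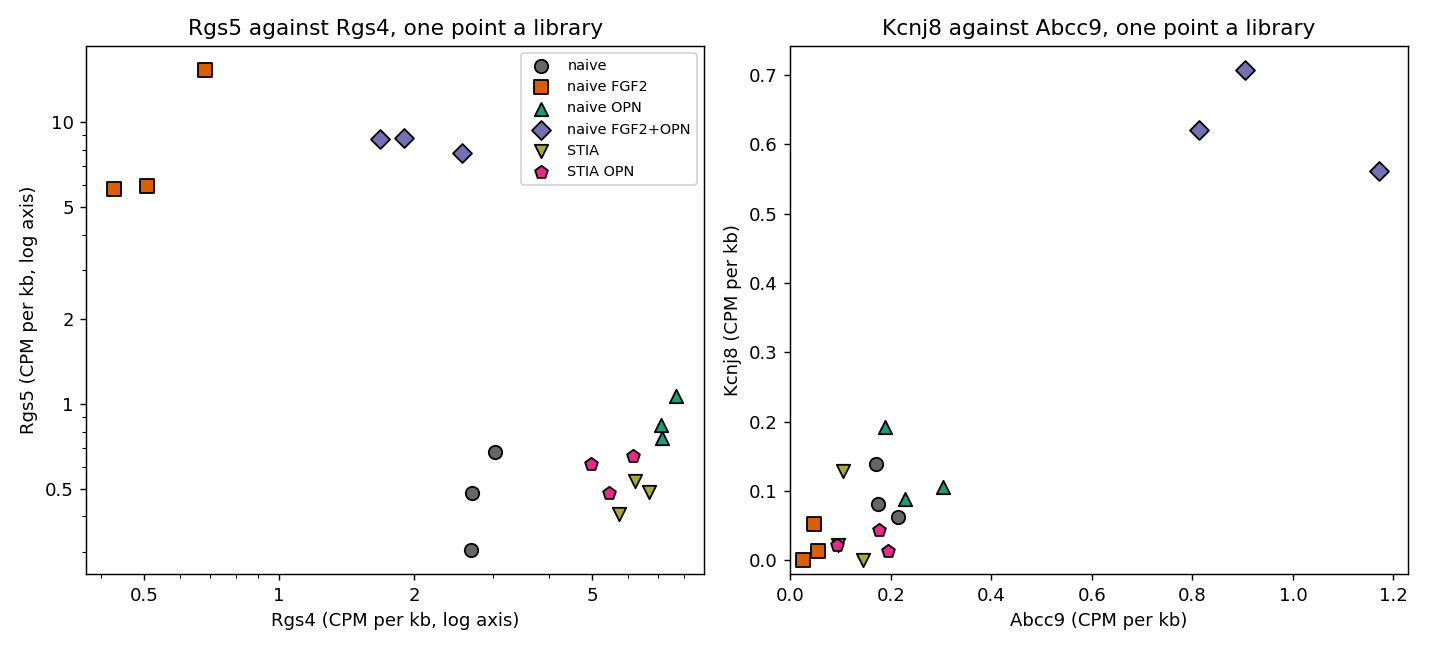
Neighbouring genes plotted against each other by library, in CPM per kilobase of exon: Rgs5 (y) against Rgs4 (x) on log axes, left, and Kcnj8 (y) against Abcc9 (x) on linear axes, right; colour and shape give the group. FGF2 libraries sit at top left for Rgs5 and Rgs4, with OPN libraries at bottom right, while for Kcnj8 and Abcc9 the 3 libraries with both factors stand alone at top right.

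Kcnj8 and Abcc9, pore and regulatory subunit of 1 channel, were low in every group but FGF2 plus OPN. Kcnj8 had 0.158, 0.354 and 0.208 CPM in unstimulated naive libraries, 0.0333, 0.132 and 0 CPM with FGF2, 0.226, 0.489 and 0.268 CPM with OPN, and 1.58, 1.43 and 1.8 CPM with both. The libraries with both factors lay above all others. In counts these were 163 over the 3 libraries with both factors, 21 unstimulated, 5 with FGF2 and 36 with OPN, so Kcnj8 passed the filter through the group in which it was high and had to differ there. The ratio of normalised counts was 6.78 against unstimulated cells (95% exact interval 4.29 to 11.2), 29.9 against FGF2 (12.6 to 93.5) and 4.84 against OPN (3.36 to 7.15). These intervals cover counting error only. As a description, in the edgeR fit Kcnj8 with both factors was 2.73 ± 0.52 above unstimulated cells (adjusted p = 0.000146), 4.80 ± 0.66 above FGF2 (adjusted p = 1.72e-06) and 2.27 ± 0.48 above OPN (adjusted p = 0.000352). Without FGF2 replicate 2, which held 4 of the 5 FGF2 counts, the second of these was 6.34 ± 0.90 (adjusted p = 2.14e-06).

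The lower level of Kcnj8 with FGF2 alone rests on 5 counts against 21. Its log2 fold change was -2.07 ± 0.87 (edgeR adjusted p = 0.0468). The call was lost without unstimulated replicate 2 (adjusted p = 0.164) or 3 (0.0652) and without FGF2 replicate 1 (0.122) or 3 (0.168), and with library totals as the only scaling (0.0552), and it was kept without FGF2 replicate 2 (-3.61 ± 1.20, adjusted p = 0.0136). The unstimulated and FGF2 libraries did not overlap, but the highest held 10 counts of this gene. OPN alone gave a difference of 0.47 ± 0.61 (adjusted p = 0.597).

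Abcc9 followed the same course at higher depth. Its levels were 1.8, 1.42 and 1.46 CPM unstimulated, 0.467, 0.397 and 0.212 CPM with FGF2, 1.91, 1.57 and 2.54 CPM with OPN, and 6.81, 9.81 and 7.58 CPM with both. FGF2 libraries were the lowest and those with both factors the highest, each without overlap with another naive group. Abcc9 fell with FGF2 by 2.13 ± 0.34 on the log2 scale (edgeR adjusted p = 1.14e-05; -2.21 ± 0.40 without FGF2 replicate 2) and did not pass with OPN (0.35 ± 0.26, adjusted p = 0.325). With both factors it was 2.36 ± 0.24 above unstimulated cells (5.14-fold, adjusted p = 3.28e-08), 2.01 ± 0.23 above OPN (4.04-fold, adjusted p = 1.34e-07) and 4.49 ± 0.30 above FGF2 (22.5-fold, adjusted p = 1.41e-11). The last value was 4.57 ± 0.35 without FGF2 replicate 2. The antisense gene 5330439B14Rik shares 158 exon bases with Abcc9 but held 4 counts in all 18 libraries together.

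In STIA libraries both channel genes lay within or below their unstimulated naive range. Abcc9 was at 0.799, 0.873 and 1.21 CPM in STIA and 1.47, 0.782 and 1.62 CPM in STIA with OPN; Kcnj8 was at 0.0551, 0.328 and 0 CPM, and 0.11, 0.0559 and 0.033 CPM. Per kilobase the ratio of Kcnj8 to Abcc9 in libraries with both factors was 0.479 to 0.78, inside the range of 0.288 to 0.822 in unstimulated naive libraries. Over the 18 libraries the 2 genes had a Pearson r of 0.83 in log2 CPM, a value that includes the group through which Kcnj8 passed the filter. The unstimulated range rests on 5, 10 and 6 counts of Kcnj8, too few to show whether the pair kept its proportion. In FGF2 and STIA libraries Kcnj8 was also too sparse for a ratio to be read.

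Cspg4 had the highest level per length of the 6 genes in each group and moved the least. Per kilobase of exon its mean was 22.4 CPM in unstimulated naive cells, where Mcam had 6.34, Rgs4 2.81, Rgs5 0.49, Abcc9 0.186 and Kcnj8 0.0943. Its levels were 262, 279 and 262 CPM unstimulated, 272, 169 and 318 CPM with FGF2, 218, 256 and 182 CPM with OPN, and 153, 136 and 155 CPM with both. The FGF2 libraries straddled the unstimulated ones, with replicate 2 the lowest, and the libraries with both factors lay below all others. With FGF2 the log2 difference was -0.08 ± 0.18 (edgeR adjusted p = 0.725), and 0.14 ± 0.12 without FGF2 replicate 2; with OPN it was -0.29 ± 0.18 (adjusted p = 0.247), which passed with no filter on low counts (adjusted p = 0.000741). With both factors Cspg4 fell by 0.86 ± 0.18 on the log2 scale from unstimulated cells (adjusted p = 0.00139) and by 0.77 ± 0.18 from FGF2 (adjusted p = 0.00222; -1.0 ± 0.12 without FGF2 replicate 2). It was also lower than with OPN alone (-0.57 ± 0.18, adjusted p = 0.0166). That call was lost with library totals as the only scaling (adjusted p = 0.0588) and without OPN replicate 2 (0.0755) or FGF2 plus OPN replicate 2 (0.0666).

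Mcam fell with each factor alone, and less with both. Its levels were 21.7, 22.9 and 19.1 CPM unstimulated, 11, 11.2 and 11.8 CPM with FGF2, 11.7, 11.9 and 10.2 CPM with OPN, and 15.7, 16.4 and 18.9 CPM with both. The 2 single-factor groups overlapped, the libraries with both factors lay above them, and the unstimulated libraries were higher still. The log2 fold change was -0.91 ± 0.09 with FGF2 (edgeR adjusted p = 5.65e-09; -0.90 ± 0.10 without FGF2 replicate 2), -0.91 ± 0.09 with OPN (adjusted p = 8.47e-08) and -0.32 ± 0.08 with both (adjusted p = 0.00302). The last was -0.18 and did not pass when libraries were scaled by their totals alone (adjusted p = 0.0733). Against FGF2 alone, Mcam with both factors was 0.58 ± 0.09 higher (adjusted p = 5.61e-06; 0.57 ± 0.10 without FGF2 replicate 2), and against OPN alone 0.59 ± 0.09 higher (adjusted p = 5.53e-06). The gene Gm10687 on the other strand shares 17 exon bases with Mcam and held 106 counts over the 18 libraries.

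Set against FGF2 alone, the cells with both factors had 4 members higher and 1 lower, where 27.3% of tested genes were higher and 31.2% lower. Set against OPN alone, 4 members were higher and 2 lower, with 27.1% and 29.5% among all genes. Kcnj8 is among the higher members in both counts, and its value is a description because of the filter. Scaling by library totals alone moved the split of all calls: in FGF2 plus OPN against unstimulated cells 47.6% of called genes were higher as reported and 68.5% under totals, and against OPN 47.9% and 64.0%. Under totals all tested genes had a median log2 fold change of 0.136 and 0.118 in these comparisons, against -0.008 and -0.011. The directions of the 6 members in both comparisons were the same under the 2 scalings.

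The interaction of the factors, the log2 effect of FGF2 in the presence of OPN minus its effect without OPN, asked whether the combination departs from the product of the single effects. It passed upward for 4 members and downward for none, where 24.1% of tested genes passed upward and 27.2% downward. Of these 4, 1 is Kcnj8, whose value is a description for the reason given above, which leaves 3. With no filter on low counts, Rgs5 (-0.95, adjusted p = 4.51e-07) and Cspg4 (-0.50, adjusted p = 7.44e-06) also passed, downward. For Kcnj8 it was 4.33 ± 0.98 (edgeR adjusted p = 0.000799; 5.88 ± 1.21 without FGF2 replicate 2) and for Abcc9 4.14 ± 0.41 (adjusted p = 1.81e-08; 4.23 ± 0.45). Abcc9 was lower with FGF2 than without it in the absence of OPN, and higher with FGF2 than without it in its presence. For Mcam it was 1.49 ± 0.12 (adjusted p = 1.19e-09; 1.48 ± 0.13 without FGF2 replicate 2), since 2 falls of equal size left a smaller fall together. For Rgs4 it was 0.53 ± 0.21 (adjusted p = 0.044; 0.72 ± 0.23 and 0.0106 without FGF2 replicate 2), a call lost in 7 of 12 fits that each left out 1 naive library, with an adjusted p of up to 0.163 without FGF2 replicate 1 and of 0.153 without FGF2 plus OPN replicate 3 (0.34). Rgs5 (-0.94 ± 0.55, adjusted p = 0.169) and Cspg4 (-0.48 ± 0.26, adjusted p = 0.132) did not pass. Without FGF2 replicate 2, Cspg4 passed downward (-0.71 ± 0.16, adjusted p = 0.00109), and Rgs5 was at -0.32 ± 0.24 (adjusted p = 0.269).

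**Figure D3:**
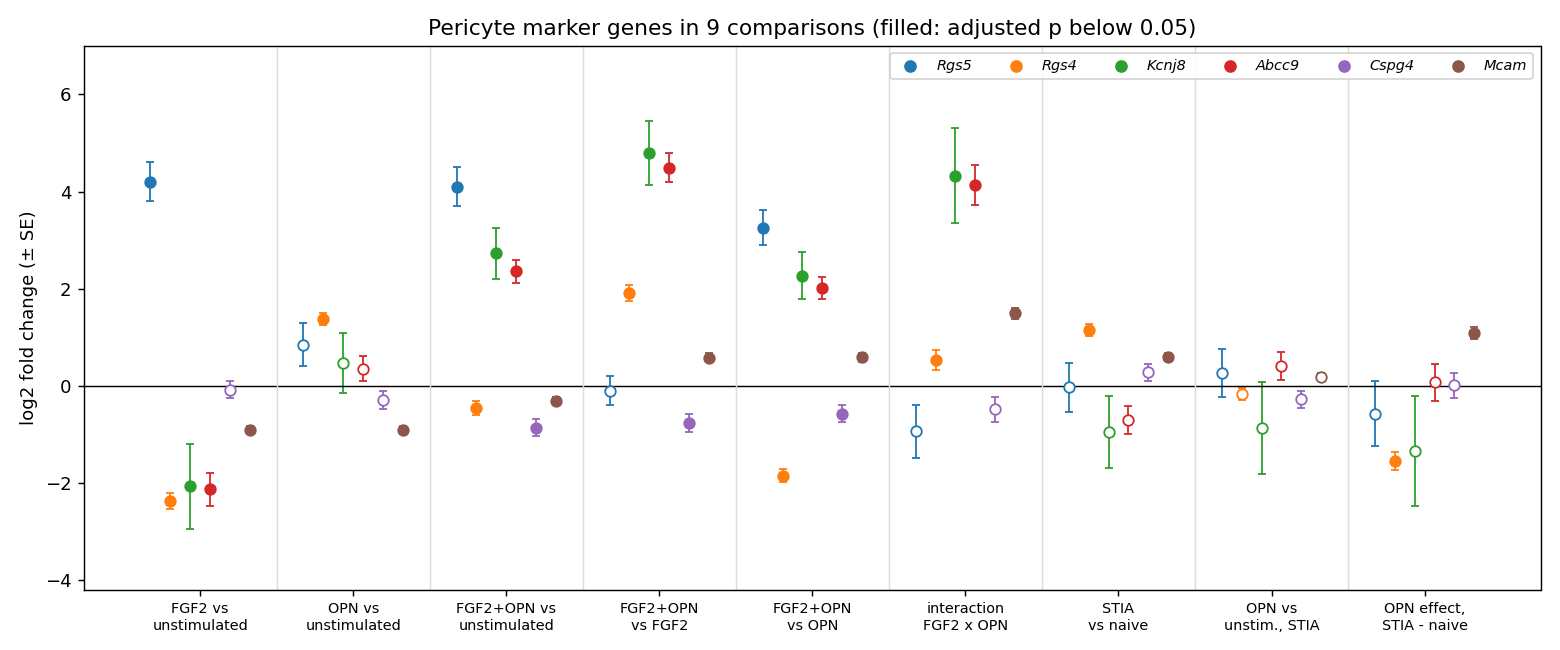
Log2 fold change (y axis; points, with error bars of 1 SE) of the 6 genes in the 9 comparisons (x axis); filled points passed at an adjusted p below 0.05 and open points did not. Kcnj8 and Abcc9 stand highest in FGF2 plus OPN against FGF2, at 4.80 and 4.49, and in the interaction, at 4.33 and 4.14, and no point is filled for OPN in STIA cells. The points of Kcnj8 are a description, since it passed the low-count filter only through the group with both factors.

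Cells of arthritic mice differed from naive cells in Rgs4 and Mcam. Between unstimulated STIA and naive cells 2 members were higher and 0 lower, with 18.6% and 18.2% of all tested genes. Rgs4 was at 19.3, 20.7 and 17.8 CPM in STIA against 8.36, 8.29 and 9.41 CPM in naive libraries, a rise of 1.15 ± 0.13 (2.21-fold, edgeR adjusted p = 5.51e-07). Mcam was at 30.6, 33.2 and 31.8 CPM against 21.7, 22.9 and 19.1 CPM, a rise of 0.59 ± 0.08 (1.5-fold, adjusted p = 1.02e-05). Neither gene's groups overlapped. Cspg4 was at 367, 294 and 317 CPM, each above the naive libraries, but the difference of 0.28 ± 0.18 did not pass (adjusted p = 0.245). Abcc9 missed the threshold (-0.71 ± 0.29, adjusted p = 0.0566). It passed in DESeq2 (adjusted p = 0.0451) and without STIA replicate 3 (-0.91, adjusted p = 0.0386). Rgs5 (-0.03 ± 0.51, adjusted p = 0.969) and Kcnj8 (-0.95 ± 0.75, adjusted p = 0.341) did not pass; without STIA replicate 2, which held 9 of the 11 STIA counts, Kcnj8 was at -2.80 (adjusted p = 0.0317). In the fit of these 2 groups alone 4 members were called, with Abcc9 (adjusted p = 0.0336) and Cspg4 (adjusted p = 0.00198) added.

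OPN changed none of the 6 genes in STIA cells at the threshold, in edgeR's quasi-likelihood test or in DESeq2. Few genes of any kind passed there, 1.15% upward and 1.02% downward. At an unadjusted p below 0.05 there was 1 member, Mcam, at 35.5, 37.2 and 35.8 CPM with OPN against 30.6, 33.2 and 31.8 CPM without (0.18 ± 0.08, adjusted p = 0.285). Rgs4 was at 15.4, 16.9 and 19.1 CPM with OPN, overlapping STIA without OPN (-0.17 ± 0.12, adjusted p = 0.58). Cspg4 was at 270, 246 and 288 CPM, below each STIA library without OPN (-0.28 ± 0.18, adjusted p = 0.522), and it was called in the fit of these 2 groups alone (adjusted p = 0.0436). The log2 differences of Rgs5 (0.27 ± 0.49), Abcc9 (0.41 ± 0.29) and Kcnj8 (-0.87 ± 0.95) were all within 2 SE.

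Whether STIA and naive cells responded differently to OPN was tested as the difference of the effects, which passed for 1 member upward and 1 downward, with 11.8% and 10.5% of all genes. For Rgs4, which OPN raised in naive cells, it was -1.55 ± 0.18 (edgeR adjusted p = 1.92e-06). For Mcam, which OPN lowered in naive cells, it was 1.09 ± 0.12 (adjusted p = 9.49e-07). For Rgs5 it was -0.57 ± 0.67 (adjusted p = 0.599), for Kcnj8 -1.34 ± 1.13 (0.435), for Abcc9 0.07 ± 0.39 (0.929) and for Cspg4 0.01 ± 0.26 (0.991). Rgs4 and Mcam were also the members called higher in unstimulated STIA than in unstimulated naive cells, and this comparison uses the same unstimulated libraries.

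Of 22 listed genes of the RGS family, 14 were tested, Rgs5 and Rgs4 among them. With FGF2 7 rose and 6 fell (median log2 fold change 0.14), with OPN 4 and 4 (-0.02), with both factors 5 and 6 (-0.15), and in STIA 4 and 3 (-0.07). Over all tested genes 29.1% rose and 28.1% fell with FGF2, 15.2% and 16.5% with OPN, and 23.7% and 26.1% with both. In STIA 18.6% rose and 18.2% fell, and with both factors against FGF2 27.3% and 31.2%. These shares also stand beside the list counts below. Among the RGS genes, Rgs5 had the largest rise with FGF2. Next came Rgs17, an RGS protein of the Gz subfamily, from 3.63, 3.19 and 3.09 CPM to 35.4, 41.2 and 29.6 CPM (3.42 ± 0.14, edgeR adjusted p = 1.86e-15), and it stayed high with both factors (26.6, 26.4 and 22.2 CPM). Rgs16 rose from 14.2, 16.1 and 15.4 CPM to 80.9, 66.3 and 90.6 CPM (2.38 ± 0.11, adjusted p = 9.26e-15), but with both factors it was at 14.1, 16.1 and 17.4 CPM, overlapping the unstimulated libraries. Rgs2 was at 4.45, 5.53 and 4.62 CPM unstimulated and 14.9, 15 and 13.7 CPM with both factors (1.58 ± 0.11, adjusted p = 1.28e-10). In STIA, Rgs16 rose together with Rgs4 (1.62 ± 0.11, adjusted p = 3.17e-10). Rgs8 fell there (-0.60 ± 0.16, adjusted p = 0.00567) and with OPN in naive cells (-0.97 ± 0.16, adjusted p = 9.47e-05).

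Among 11 listed ATP-sensitive and other inward rectifier genes, 5 were tested, Kcnj8 and Abcc9 among them. The alternative pore and receptor genes of the ATP-sensitive channel were near absent: Kcnj11 had no count in any library and Abcc8 at most 3 counts in each. With FGF2 0 rose and 5 fell (median -2.08), with OPN 0 and 3 (-0.74), and with both factors 2 and 2 (-0.33). These counts include Kcnj8, which was sparse and passed the filter through the group with both factors. The inward rectifier Kcnj15 was at 101, 96.1 and 88.8 CPM unstimulated and 19.5, 13.3 and 22.1 CPM with FGF2 (-2.38 ± 0.14, edgeR adjusted p = 1.38e-10). Kcnj2, a classical strong inward rectifier, was at 15.1, 13.5 and 14.7 CPM and 2.6, 3.97 and 3.63 CPM (-2.08 ± 0.15, adjusted p = 3.61e-11). Unlike Abcc9, Kcnj15 and Kcnj2 remained below unstimulated cells with both factors, Kcnj15 at -1.43 ± 0.14 (adjusted p = 1.52e-07) and Kcnj2 at -0.57 ± 0.13 (adjusted p = 0.00126).

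A list of 30 other mural cell markers, 25 of them tested, was read beside the 6 genes. With FGF2 5 rose and 15 fell (median log2 fold change -1.37, against 0.01 for all genes), with OPN 1 and 8 (-0.29), with both factors 12 and 4 (0.35), and in both factors against FGF2 19 and 3 (1.11, against -0.01). Their summed level was 1935 to 2062 CPM unstimulated, 1021 to 1121 with FGF2, 1708 to 1872 with OPN, 1880 to 2102 with both, 1451 to 1567 in STIA and 1620 to 1723 in STIA with OPN. Most of the unstimulated sum was Pdgfrb, Cd248 and Anpep, which fibroblasts also express. With both factors Pdgfrb (528 against 826 CPM) and Cd248 (304 against 495 CPM) averaged below unstimulated cells and Anpep (696 against 316 CPM) above. The sum thus does not show a return of each marker. Steap4, a metalloreductase, was at 8.71, 8.89 and 6.77 CPM unstimulated, 0.0333, 0.264 and 0.121 CPM with FGF2 and 10.3, 11.3 and 11.8 CPM with both (6.28 ± 0.32 over FGF2, edgeR adjusted p = 2.24e-13). The amine oxidase Aoc3 was at 25.1, 23.6 and 22.8 CPM, 1.87, 1.92 and 2.21 CPM and 22.5, 29.5 and 33.5 CPM in the same groups (3.82 ± 0.13, adjusted p = 2.72e-16). The chloride channel Ano1 was among the 5 that rose with FGF2, from 7.16, 9.6 and 7.33 CPM to 86.7, 64.1 and 92.8 CPM (3.34 ± 0.19, adjusted p = 1.14e-10). Steap4 and Aoc3 were low with FGF2 alone and, with both factors, near or above their unstimulated levels. Abcc9 lay with both factors well above each unstimulated library, and Rgs5 was high in both groups. The course of Abcc9 in these groups was not particular to it. Enpep averaged 7.65 CPM unstimulated, 2.24 with FGF2 and 15.2 with both, and Angpt1 averaged 18.3, 4.12 and 31.1 CPM. As given above, 12 genes of the list were higher with both factors than unstimulated and 4 lower. Without FGF2 replicate 2, 5 rose and 17 fell with FGF2, 20 were higher and 5 lower with both factors than with FGF2, and Steap4 was 7.07 over FGF2. In STIA 2 of the 25 rose and 9 fell (-0.14), among them Steap4 (-3.65 ± 0.26, adjusted p = 8.38e-10) and Anpep, the aminopeptidase CD13 (-2.25 ± 0.19, adjusted p = 6.31e-07). With OPN in STIA 3 rose and 0 fell (0.14), with 1.15% and 1.02% of all tested genes.

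Markers of other cells moved with some of these results. Smooth muscle markers, 12 of 15 tested, summed to 1151 to 1318 CPM unstimulated, 270 to 485 with FGF2, 1257 to 1474 with OPN, 422 to 708 with both, 3244 to 3330 in STIA and 2463 to 2585 in STIA with OPN. Of these 12, 11 rose in STIA (median 1.98), where 18.6% of all tested genes rose, Rgs4 and Mcam among them. Myh11, a smooth muscle myosin, rose by 2.16 ± 0.30 (edgeR adjusted p = 2.18e-05), and Pln and Rergl had no count. Endothelial markers, 10 of 14 tested, summed to 21.6 to 24.7 CPM unstimulated, 28.2 to 36.5 with FGF2, 22.7 to 28.9 with OPN, 21.5 to 26.3 with both, 18.1 to 20 in STIA and 17.1 to 19.3 in STIA with OPN. Of these, 6 rose and 2 fell with FGF2 (1.40). Plvap (log2 fold change 4.34 ± 0.36) and Kdr (3.14 ± 0.21) rose, and Erg (-3.72 ± 0.26) and Tek (-3.14 ± 0.16) fell. Pecam1 was below 1 CPM in each group, and Cldn5 and Tie1 were at or under 3 counts in each library. Macrophage markers, 5 of 12 tested, summed to 14.3 to 15.5 CPM unstimulated, 53.9 to 56.7 with FGF2, 17.7 to 22.1 with OPN, 21.0 to 23.1 with both, 14.3 to 15.3 in STIA and 14.2 to 14.4 in STIA with OPN. Among them Cd14 (2.86 ± 0.12) and Mrc1 (2.91 ± 0.28) rose with FGF2, and Lyz2 (-2.73 ± 0.28) and Csf1r (-2.59 ± 0.23) fell. Adgre1, C1qa, C1qb, C1qc and Tyrobp were at or under 3 counts in each library. Schwann cell markers, 9 of 9 tested, summed to 105 to 108, 66.8 to 90.6, 74.2 to 86.1, 111 to 126, 75.8 to 96.5 and 125 to 140 CPM in the same order of groups. Skeletal muscle markers, 4 of 9 tested, summed to 8.34 to 10.3, 4.23 to 13.1, 14.8 to 18, 8.28 to 8.72, 60.6 to 76.9 and 25.6 to 29.6 CPM. Nearly all of the STIA level was Acta1, at a mean of 65.3 CPM against 6.3 CPM in naive cells, while Tnnt3 (1.04 against 1.41 CPM) and Mylpf (0.79 against 0.995 CPM) were not higher. The part of these cells in the results on the 6 genes was not tested.

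**Figure D4:**
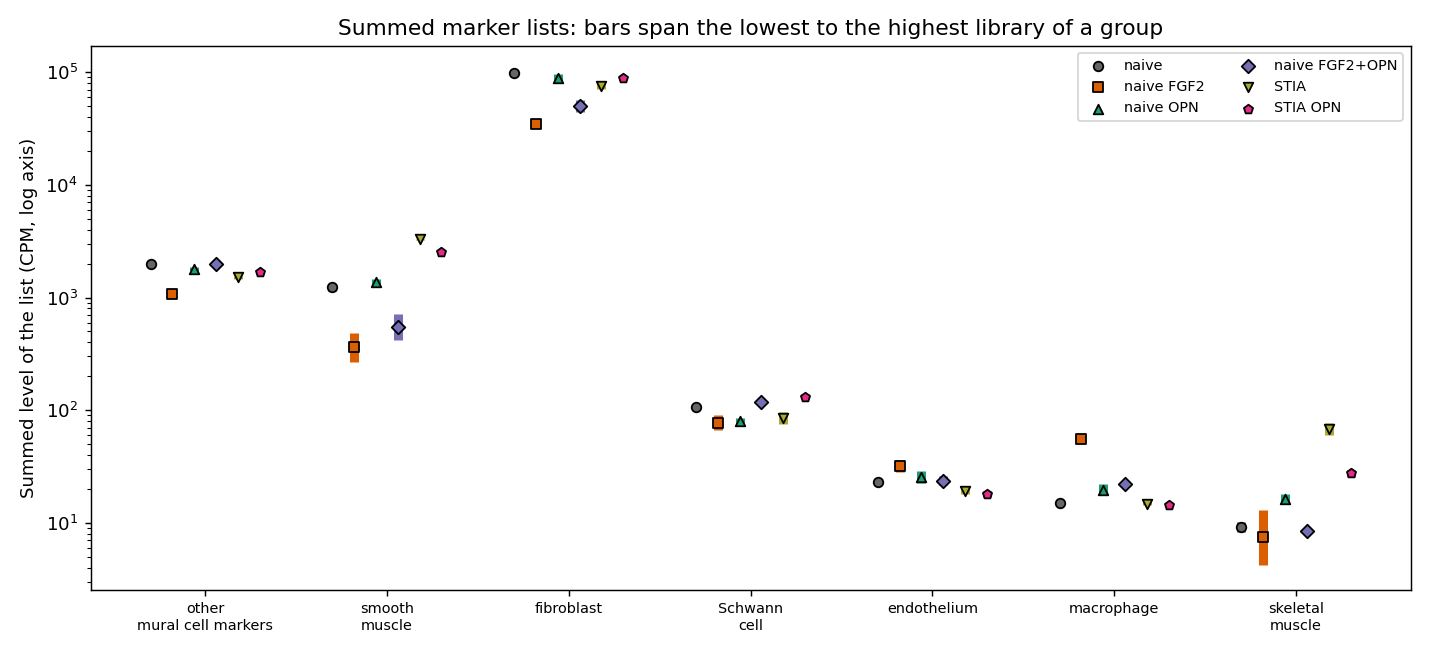
Summed level of 7 marker lists (x axis) in the 6 groups (y axis, CPM, log scale); bars span the lowest to the highest of 3 libraries and symbols mark the group. Smooth muscle markers range from 270 to 485 CPM with FGF2 to 3244 to 3330 CPM in STIA, while endothelial markers stay between 17.1 and 36.5 CPM.

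Signals that recruit pericytes to vessels were read from a list of 29 genes, 28 of them tested. With FGF2 9 rose and 18 fell (median -0.90), with OPN 4 and 10 (-0.09), with both factors 9 and 14 (-0.17), in both factors against FGF2 17 and 8 (0.83), and in STIA 9 and 12 (-0.04). Hey1 and Heyl, transcription factor genes that Notch can induce, fell with FGF2, with log2 fold changes of -4.03 ± 0.22 and -3.90 ± 0.22 (edgeR adjusted p = 3.8e-13 and 1.46e-12). Hes1, which Notch can also induce, was at 30.2, 31.5 and 40.8 CPM unstimulated and 44.9, 33.5 and 35.6 CPM with FGF2, so the ranges overlapped. The receptor gene Pdgfrb was at 829, 856 and 792 CPM unstimulated, 307, 272 and 314 CPM with FGF2 and 494, 530 and 559 CPM with both. The angiopoietins went apart with FGF2 alone. Angpt2, the vessel-destabilising ligand, was higher than unstimulated (3.71 ± 0.22, adjusted p = 1.18e-12). Angpt1, the stabilising ligand that pericytes release, averaged 4.12 CPM against 18.3 unstimulated. With both factors Angpt1 was higher than with FGF2 alone (2.91 ± 0.13, adjusted p = 3.15e-14). There the 2 genes did not go apart: Angpt1 averaged 31.1 CPM, and Angpt2 averaged 7.67 CPM against 0.819 unstimulated. With OPN in STIA cells 7 of these genes rose and 0 fell, with 1.15% and 1.02% of all tested genes. Notch3 (0.50 ± 0.12, adjusted p = 0.0278) and Heyl (0.70 ± 0.16, adjusted p = 0.0241) were among the 7, while the 6 marker genes did not pass. This list shares Pdgfrb, Angpt1, Notch3 and Heyl with the other mural markers, so Notch3 and Heyl also count among the mural markers that rose there.

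Of 18 known partners of NG2 and MCAM, 17 were tested. With FGF2 6 rose and 7 fell (median 0.06), with OPN 2 and 3 (-0.15), with both factors 2 and 8 (-0.18), and in STIA 4 and 5 (-0.09). Lama4, a laminin chain bound by MCAM, was at 189, 182 and 177 CPM unstimulated, 41, 50.9 and 44 CPM with FGF2, 149, 129 and 161 CPM with OPN, and 127, 154 and 151 CPM with both. It fell with FGF2 by 2.01 ± 0.09 on the log2 scale (edgeR adjusted p = 1.65e-14) and was 1.67 ± 0.09 higher with both factors than with FGF2 alone (adjusted p = 8.43e-13). With OPN alone Lama4 was near its level with both factors, whereas Mcam was as low as with FGF2. Among these partners, without FGF2 plus OPN replicate 3, 1 rose and 9 fell with both factors. The collagen VI gene Col6a2, whose product binds NG2, fell with FGF2 (-2.51 ± 0.16, adjusted p = 1.11e-09), where Cspg4 did not pass.

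The genes around each pair were compared to see whether the responses ran across the locus. Beside Rgs5 and Rgs4, the nearest tested genes were Nuf2 (124 kb), with a log2 fold change of 0.38 with FGF2 (edgeR adjusted p = 0.000857), and on the other side Hsd17b7 (202 kb), with 0.24 (adjusted p = 0.0153). Both were small beside the 4.20 of Rgs5 and opposite in sign to the -2.37 of Rgs4. Beside Kcnj8 and Abcc9, Ldhb (56.9 kb) was -0.28 with FGF2 (adjusted p = 0.0193) and 0.90 higher with both factors than with FGF2 (adjusted p = 4.69e-08), whereas Cmas (54.4 kb) was 0.93 (adjusted p = 1.93e-11) and -0.61 (adjusted p = 2.9e-08). St8sia1 (119 kb) had no count in unstimulated naive libraries and averaged 2.13 CPM with FGF2 and 0.0384 CPM with both factors. In these comparisons Ldhb had the signs of Abcc9 at a smaller size and Cmas the opposite signs. Against unstimulated cells, however, Cmas was 0.32 with both factors (adjusted p = 0.00027) and 0.35 with OPN (adjusted p = 0.00027), the sign of Abcc9 there.

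For each of the 6 genes the 5 tested genes with the most similar log2 CPM over the 18 libraries were listed, by Pearson r and among genes with a mean of at least 1 CPM. For Rgs5 these were Tnxb (0.982), Col23a1 (0.979), Sparcl1 (0.979), Ppm1l (0.976) and Man1a (0.975). Tnxb, a matrix glycoprotein, averaged 2.86 CPM unstimulated, 21.2 CPM with FGF2 and 22.5 CPM with both, and Sparcl1 2.6, 33.2 and 39.4 CPM. For Rgs4, 4 of the 5 were Palld (0.976), Nuak1 (0.969), Tgfb3 (0.968) and F3 (0.968). F3, the initiator of coagulation, averaged 76.1 CPM unstimulated, 4.84 with FGF2, 114 with OPN and 116 in STIA. For Abcc9 they were Prr16 (0.963), Nsg1 (0.945), Vegfd (0.939), Tshz2 (0.939) and Emilin1 (0.936), and for the sparse Kcnj8 Glod4 (0.914), Cdkn1c (0.91), Fbxo36 (0.906), Calml4 (0.904) and Jmjd8 (0.904). For Cspg4 they were Parp1 (0.944), L3mbtl2 (0.941), Chaf1b (0.937), E2f7 (0.937) and Sgf29 (0.934), several of which serve DNA replication or repair. For Mcam they were Epb41l3 (0.969), Thsd1 (0.961), Plekhg2 (0.956), Mmp17 (0.955) and Tnfaip3 (0.951). No member was among the 5 nearest genes of another, but Kcnj8 averaged below the limit of 1 CPM and could not be listed. These values describe libraries that share their groups.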

How the data were processed

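The authors deposited 1 table of raw counts per gene for 18 libraries, made with STAR and featureCounts on GRCm38 (mm10), per the submitters' processing notes. The sources used here do not give versions, annotation release, strand setting or the handling of multi-mapping reads, so reads of overlapping antisense genes cannot be told apart. The Length column, the deposited summed exon length of a gene, was used only for levels per kilobase. Symbols came from GENCODE M21 and matched 32158 of 32285 identifiers. Promoters came from RefSeq (GRCm38.p6), where 6 of 6 members matched. Totals are given in the report. A gene at or under 3 counts in a library was taken as at the floor.

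Counts were fitted in R 4.3.3 with edgeR 4.0.16: filterByExpr (15072 genes), TMM, 1 mean per group over all 18 libraries, robust quasi-likelihood test, two-sided, Benjamini-Hochberg, threshold 0.05; the biological coefficient of variation was 8%. CPM uses TMM-scaled sizes, and correlations use log2 CPM with a prior count of 2. The model was tested on simulated data. Alternatives were DESeq2 1.42.0, median-of-ratios size factors, library totals, no low-count filter, only the groups compared, the replicate number as a block, and leaving out each library. No replicate pair of 18 was identical. Same-numbered replicates did not deviate together (45 pairs, r from -0.104 to 0.199, 2 above 0.1), so the numbers were not used as pairs.

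The 6 members, gene lists and alternatives were chosen with earlier results of these data known. Named list genes are up to 4 per list and comparison past the threshold that average at least 1 CPM, taken by the largest absolute change. Pdgfrb, Cd248, Anpep, Hes1, Acta1, Tnnt3, Mylpf, F3, Tnxb and Sparcl1 levels and the markers given at or near 0 were chosen after their values were seen. The same holds for the levels of Enpep, Angpt1, Angpt2, Col1a1, Vim and Pdpn. No test was run on a list as a whole. Of the genes most similar to Rgs4, 1 is not reported here.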

Additional observations from a re-analysis of the deposited data

Results flagged for a closer look

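The effect of FGF2 differed with and without OPN, by the interaction test in edgeR, for Kcnj8 (4.33 on the log2 scale), Abcc9 (4.14), Mcam (1.49) and Rgs4 (0.53). For Abcc9 the direction turned: it fell with FGF2 alone and was higher with FGF2 plus OPN than with OPN. The value for Kcnj8 is a description, since the gene passed the filter through the group with both factors. Its lower level with FGF2 rests on 5 counts against 21, and that call was lost under library totals and in 4 of the fits that left out 1 library. For Rgs4 the value is small and depends on single libraries.

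The effect of OPN differed between STIA and naive cells for Rgs4 (-1.55) and Mcam (1.09), by the test of that difference. OPN raised Rgs4 and lowered Mcam in naive cells, and neither passed in STIA cells, where both started from higher levels.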

How the results depend on the processing

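Over 9 comparisons the 6 genes gave 716 values under alternative settings. Of these, 663 kept their direction and side of the threshold, 17 lost the call, 15 gained it and 21 changed sign. With no low-count filter, members called went from 2 to 4 for OPN in naive cells, from 2 to 4 for STIA against naive cells and from 0 to 1 for OPN in STIA. Fitting only the groups compared gave 4 and 1 for the last 2. Over all genes, those lower with both factors than unstimulated went from 3940 to 2414 under library totals. For OPN in STIA the genes higher and lower were 174 and 153 as reported, 290 and 336 in DESeq2, 524 and 424 with no filter, 652 and 715 with only the groups compared, and 23 to 132 and 13 to 86 when 1 library was left out. With the replicate block the members called stayed at 5 for FGF2, 2 for OPN, 6 for both factors, 2 for STIA and 0 for OPN in STIA, and the block changed no count by over 1.5 times.

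Sign changes were limited to differences that had not passed. Cspg4 with FGF2 was 0.00 under totals and -0.28 to 0.14 when 1 library was left out. Leaving out 1 library also gave -0.34 to 0.52 for Rgs5 in both factors against FGF2 and -0.28 to 0.26 in STIA, and -1.41 to 0.98 for Kcnj8 with OPN in STIA. For the OPN effect in STIA minus naive cells it gave -0.11 to 0.14 for Cspg4, -0.14 to 0.35 for Abcc9 and -1.87 to 0.51 for Kcnj8; Cspg4 was -0.01 in DESeq2, with median-of-ratios size factors and with only the groups compared, and -0.02 under totals. The cause was not tested, apart from the fewer libraries in each fit that left one out. Depth limits Kcnj8 most, with 5 to 36 counts per group outside FGF2 plus OPN.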
